A study of Mus musculus with 96 samples.

Results

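The mir-26 family of the mouse was described here in the cerebellum of Huntingtin (Htt) knock-in mice. It comprises 3 stem-loops, the hairpin precursors from which microRNAs are cut: mir-26a-1 (miRBase ID MI0000573), mir-26a-2 (MI0000706) and mir-26b (MI0000575). They were taken by their IDs and not by a measured value, though earlier results of these data were known. They are 3 of the 1187 stem-loop IDs for which values were deposited. All 3 were among the 434 IDs that passed the filter on low counts and were tested.

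Small RNA was sequenced from 96 cerebella of C57BL/6 mice aged 10 or 6 months, with 4 males and 4 females for each genotype and age. The knock-in mice were heterozygous: they carried 1 endogenous Htt allele and 1 allele with human HTT exon 1, with a CAG repeat length of 140, 92, 50 or 20 (Q140, Q92, Q50 and Q20). Wild type (WT) mice were littermates from the Q20 line and from the Q50 line, housed with the heterozygotes of their line, whereas Q140 and Q92 mice were labelled as housed with mice of their own genotype and had no WT littermates among these samples. The study's methods describe cages with both heterozygous and WT mice, without naming lines. As in the study's methods, Q20 and all WT libraries served together as controls, so the controls include carriers of a knock-in allele of normal length. The mutant allele is present in every cell of these animals, and each library is whole cerebellum, in which fewer cells of a type and less RNA per cell cannot be told apart.

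microRNAs guide the silencing complex to messenger RNAs, mainly through the seed, bases 2 to 8 of the mature strand. The miR-26 family is conserved among vertebrates, and its stem-loops lie in introns of the Ctdsp genes, whose transcripts they can be cut from. These hosts encode small C-terminal domain phosphatases, which act with REST, a repressor of neuronal genes in non-neuronal cells. In zebrafish, miR-26b represses ctdsp2, its own host transcript in that species, during neuron formation.

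The mature sequences show what the 3 loci share and where they differ. They are RefSeq sequences of the GRCm38.p6 assembly, 5′ to 3′, with the seed in capitals, and all 3 members were matched by name.
miR-26a-5p, from mir-26a-1 and from mir-26a-2: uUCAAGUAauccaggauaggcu
miR-26b-5p: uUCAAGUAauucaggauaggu
miR-26a-1-3p: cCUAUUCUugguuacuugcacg
miR-26a-2-3p: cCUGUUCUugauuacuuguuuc
miR-26b-3p: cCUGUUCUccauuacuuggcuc
The 5p sequence from the 2 mir-26a loci is the same, base for base, over its 22 bases. miR-26b-5p has the same seed and, counted from 1 at the 5′ end of miR-26a-5p, differs from it by the substitutions C11U and C21U over the 21 bases it has. The 3p arms of the 2 mir-26a loci differ at 6 of 22 positions.

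The hairpins are shown in full because a read is assigned to a locus by the bases it covers. The capitals mark the 5p mature sequence.
mir-26a-1, chr9:119031796-119031885, plus strand: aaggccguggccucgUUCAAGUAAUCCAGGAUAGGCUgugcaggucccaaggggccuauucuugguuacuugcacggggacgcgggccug
mir-26a-2, chr10:126995530-126995613, plus strand: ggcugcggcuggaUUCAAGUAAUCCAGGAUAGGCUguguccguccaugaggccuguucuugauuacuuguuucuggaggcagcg
mir-26b, chr1:74394310-74394394, plus strand: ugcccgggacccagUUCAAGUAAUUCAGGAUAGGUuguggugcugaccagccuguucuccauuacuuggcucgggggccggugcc
The longest run that the 2 mir-26a hairpins have in common is 25 bases and includes the whole of miR-26a-5p, so a read of that mature form fits both loci. In the GENCODE annotation of the same assembly, mir-26a-1 lies in intron 5 of Ctdspl (chromosome 9, 118926453 to 119043998), mir-26a-2 in intron 5 of Ctdsp2 (chromosome 10, 126978717 to 126999975) and mir-26b in intron 4 of Ctdsp1 (chromosome 1, 74391509 to 74397285). Intron numbers are those of the principal coding transcript, each member lies on the strand of its host, and none overlaps an exon of a coding transcript that spans it. The lengths implied by the deposited counts and FPKM (fragments per kilobase and depth) were 90, 84 and 85 bases for MI0000573, MI0000706 and MI0000575, equal to the lengths of the 3 hairpins.

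mir-26a-2 was the dominant member and one of the most abundant stem-loops of the cerebellum. On the FPKM scale, which allows for length, it ranked 1st of 1187 IDs in 64 of the 96 libraries and 2nd in the others. It averaged 1755960 ± 153931 FPKM (SD, n = 96), or 14.8% ± 1.29 of all counts of a library. mir-26a-1 averaged 99207 ± 54287 FPKM (rank 14 to 54), and mir-26b 48834 ± 4645 FPKM (rank 33 to 49; SD, n = 96 each). The spread of mir-26a-1 between libraries was thus 54.7% of its mean, against 8.77% for mir-26a-2 and 9.51% for mir-26b on the same scale.

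The division of reads between the 2 mir-26a loci was an estimate, whereas their sum was close to a count. Deposited values of mir-26a-1 lay over 0.001 from a whole number in 96 of 96 libraries and those of mir-26a-2 in 88, but those of mir-26b in 0. The sum of mir-26a-1 and mir-26a-2, called mir-26a here, lay within 0.0586 of a whole number in every one of the 96 libraries. Each locus is therefore reported beside mir-26a, which does not depend on how the reads were divided between the loci.

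Library totals ranged between 5435778 and 7934044 estimated counts, so that 3 counts in the smallest library came to 0.552 CPM (counts scaled to a common depth), a floor that covers counting error only. Intervals of fold changes come from the SE of the fits and include the spread between libraries. Levels are given as normalised CPM, scaled with edgeR's TMM factors over all 96 libraries, and as group values over the libraries that entered the tests. In each age, libraries were scored by their connectivity to the others (Z.k, in units of the median absolute deviation). Q20 6-month female replicate 2 and Q92 6-month male replicate 4 fell under the study's limit of -5 and were left out of the tests, and 8 libraries in all fell under -3. Tests were edgeR quasi-likelihood tests with sex and the L tag as covariates, an ID being called at a Benjamini-Hochberg adjusted p under 0.05 over all 434 tested IDs. Library names carry a mark here called the L tag, L8 or L1 at 10 months and L4, L3 or L2 at 6 months. It was used in place of the batch that the study's methods adjusted for, and the labels do not say what it denotes.

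The level of mir-26a-1 followed the L tag at both ages, while mir-26a as a whole differed little between the tags at 10 months. At that age, mir-26a-1 had a lowest, median and highest level of 11077, 16373 and 18497 normalised CPM in the 24 L8 libraries, against 2373, 4967 and 11347 normalised CPM in the 24 L1 libraries. The groups overlapped in 1 library each: Q20-line WT 10-month female replicate 3, with L1, reached 11347, and Q50 10-month female replicate 3, with L8, had 11077. In the edgeR model the level was 3.38-fold higher in L8 than in L1 libraries (log2 1.76, SE 0.09, adjusted p = 3.56e-21), the 4th smallest p of 434, where 4.84% of IDs were called. mir-26a-2 was at 102915 to 164218 normalised CPM in L8 libraries, against 122849 to 188569 in L1 libraries (log2 -0.11, SE 0.04, adjusted p = 0.159). mir-26a ranged between 113992 and 182715 normalised CPM in L8 libraries, against 126641 and 194178 in L1 libraries, and its log2 difference was 0.00299 (SE 0.04, adjusted p = 0.995). mir-26b ranged between 3459 and 5821 normalised CPM in L8 libraries, against 3666 and 5969 in L1 libraries (log2 0.01, SE 0.05, adjusted p = 0.961).

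For mir-26a-1 a like division was seen at 6 months, where 10.4% of IDs were called between L4 and L3, 4.61% between L4 and L2 and 1.61% between L3 and L2. mir-26a-1 had 9539, 11043 and 14668 normalised CPM (lowest, median and highest) in the 16 L4 libraries, against 3563, 5052 and 8065 in the 24 L3 libraries and 3592, 4476 and 7492 in the 6 L2 libraries. L4 libraries did not overlap with either of the others. The log2 difference of mir-26a-1 was 1.12 between L4 and L3 (SE 0.10, adjusted p = 1.46e-11), 1.30 between L4 and L2 (SE 0.16, adjusted p = 4.67e-08) and 0.18 between L3 and L2 (SE 0.14, adjusted p = 0.665). The other locus moved the opposite way, by more in normalised CPM but by less on the log2 scale. The mean of mir-26a-2 was 134253 normalised CPM in L4, 149311 in L3 and 164361 in L2 libraries, against 11271, 5286 and 4799 for mir-26a-1. On the log2 scale, mir-26a-2 differed by -0.16 between L4 and L3 (SE 0.04, adjusted p = 0.00263), by -0.30 between L4 and L2 (SE 0.05, adjusted p = 5.28e-05) and by -0.14 between L3 and L2 (SE 0.05, adjusted p = 0.175). For mir-26a these log2 differences were -0.08 (SE 0.04, adjusted p = 0.177), -0.21 (SE 0.05, adjusted p = 0.00923) and -0.13 (SE 0.05, adjusted p = 0.167). mir-26b was 0.14 higher in L4 than in L3 libraries (SE 0.03, adjusted p = 0.000748) and 0.24 lower in L3 than in L2 libraries (log2 -0.24, SE 0.04, adjusted p = 1.93e-05), and the log2 difference between L4 and L2 was -0.10 (SE 0.04, adjusted p = 0.132).

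**Figure D1:**
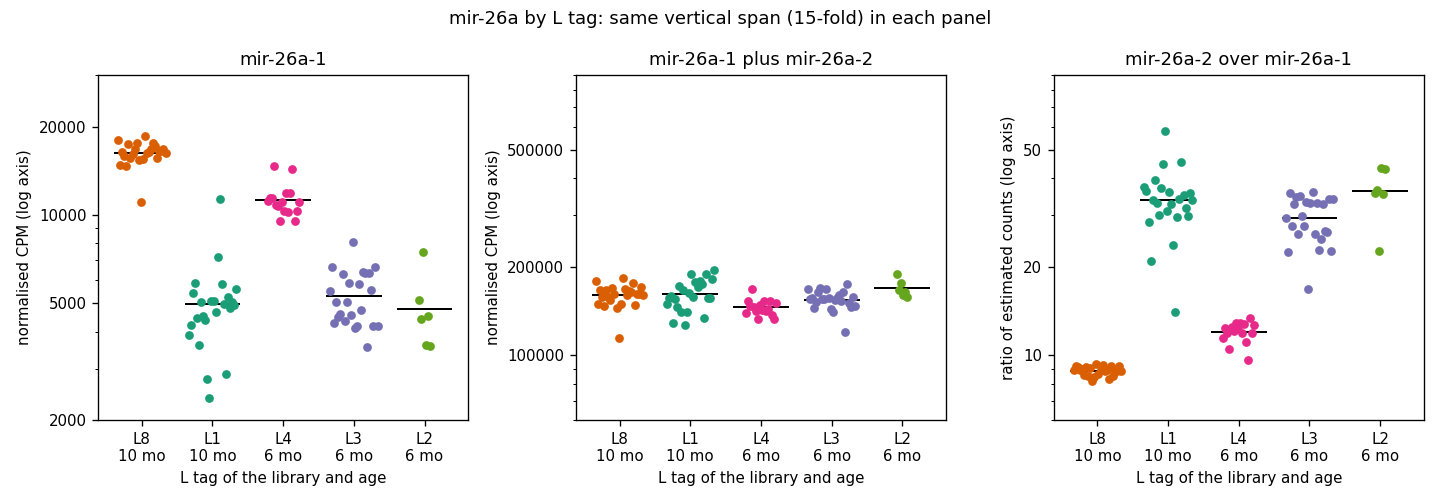
Level of mir-26a-1 (left) and of mir-26a-1 plus mir-26a-2 (middle) in normalised CPM, and ratio of the estimated counts of mir-26a-2 over mir-26a-1 (right), for the 94 libraries tested, by L tag and age. Points are libraries, lines are means, and the log axes cover the same fold range, so that the separation of L8 and L4 from the other tags on the left and right can be compared by eye with the smaller differences in the middle.

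The ratio of the 2 loci within a library, which needs no normalisation, separated L8 from L1 libraries, and L4 from L3 and L2 libraries, without overlap. The ratio of mir-26a-2 over mir-26a-1 ranged between 8.14 and 9.29 in the 24 L8 libraries, against 14.1 and 58.1 in the 24 L1 libraries. At 6 months it ranged between 9.66 and 13.4 in the 16 L4 libraries, against 16.8 and 35.9 in the 24 L3 libraries and 22.6 and 43.4 in the 6 L2 libraries. L8 libraries held 10.2% ± 0.332 of mir-26a at mir-26a-1 (SD, n = 24) and L1 libraries 3.07% ± 0.956 (SD, n = 24), and the shares were 7.73% ± 0.628 with L4 (n = 16), 3.42% ± 0.687 with L3 (n = 24) and 2.82% ± 0.733 with L2 (n = 6). The L tags were not spread evenly over the genotypes: at 6 months L4 held 6 of 8 Q50 libraries but 1 of 8 Q140 libraries, so means of mir-26a-1 over a genotype carried its mix of L tags.

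The stem-loops whose levels were most like mir-26a-1 over the libraries differed by L tag as well, which follows largely from how they were chosen. Likeness was the mean of the 2 Pearson correlations of log2 CPM within an age (48 libraries at 10 months, 46 at 6 months), given as a description, since the libraries share batches and depth. The 3 IDs outside the family closest to mir-26a-1 were MI0000721 (r = 0.96 at 10 months and 0.92 at 6 months), MI0000557 (r = 0.93 and 0.89) and MI0000716 (r = 0.90 and 0.66), none of which is named in the files or in the reference used here. Their levels were 2.13, 1.53 and 0.95 higher on the log2 scale in L8 than in L1 libraries (SE 0.04, 0.08 and 0.04; adjusted p = 1.58e-38, 2.96e-21 and 1.41e-23). Since mir-26a-1 followed the L tag, IDs picked for likeness to it would do so too, and these p-values are not separate evidence. Their deposited values, like those of mir-26a-1, were not whole in 96, 96 and 95 libraries. Among all tested IDs, 12 of the 122 whose values were not whole in at least 48 libraries were called between L8 and L1 (9.84%), against 9 of the other 312 (2.88%). The 12 include mir-26a-1 and the 3 IDs just named. Between L4 and L3, 21 of the 122 (17.2%) and 24 of the 312 (7.69%) were called. The median absolute log2 difference was 0.0573 against 0.0474 for L8 and L1, and 0.08 against 0.099 for L4 and L3. Whether the division of reads bears on the tag differences was not tested. mir-26a-1 itself had r = -0.12 at 10 months and -0.44 at 6 months with mir-26a-2, its partner locus.

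mir-26a-2 and mir-26b varied with other stem-loops. mir-26a-2 was closest to MI0000549 (r = 0.71 at 10 months and 0.80 at 6 months), MI0000761 (r = 0.66 and 0.77) and MI0000556 (r = 0.65 and 0.67), and mir-26b to MI0000155 (r = 0.61 and 0.58), MI0000728 (r = 0.68 and 0.49) and MI0000137 (r = 0.74 and 0.43). Of these IDs, only MI0000556 was called between L8 and L1 (log2 -0.30, SE 0.06, adjusted p = 0.000642) and between L4 and L3 (log2 -0.17, SE 0.05, adjusted p = 0.0192). Its values were not whole in 96 libraries. Between mir-26a-2 and mir-26b, which come from different hosts, r was 0.67 at 10 months and 0.26 at 6 months. Between mir-26a-1 and mir-26b it was 0.18 at 10 months and 0.27 at 6 months.

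Across genotypes, the ranges of mir-26a-2 overlapped. Before adjustment for the L tag, the lowest median was that of Q50 at both ages. At 10 months its median was 147710 normalised CPM in Q140 (lowest 132347, highest 160838), 152053 in Q92 (144391 to 183548), 134379 in Q50 (102915 to 161661), 145675 in Q20 (122849 to 166484), 158898 in Q20-line WT (132760 to 172246) and 152865 in Q50-line WT (130745 to 188569; 8 libraries each). The ranges of all 6 groups overlapped. At 6 months the medians were 157193 in Q140, 150184 in Q92 (7 libraries), 136045 in Q50, 151218 in Q20 (7 libraries), 142636 in Q20-line WT and 141985 in Q50-line WT, within a range of 116326 to 183901 over all libraries. Of the 8 Q50 libraries at 6 months, 6 had L4, the tag with the lowest mean of mir-26a-2 at that age. With the L tag as a covariate, Q50 was not lower at 6 months (edgeR log2 fold change 0.05, SE 0.04, adjusted p = 0.895). The 10-month median was highest in Q20-line WT (158898, SD 14277) and lowest in Q50 (134379, SD 16748), further apart than the SD of either group. These are the extremes of 6 groups. The medians of Q20 (SD 12676) and Q50-line WT (SD 20530) differed from that of Q50 by less than their own SD.

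mir-26b, the member with a single mature 5p form of its own, also had its lowest 10-month median in Q50. At that age 2 of the 8 Q50 libraries lay under every control. At 10 months its median was 4264 normalised CPM in Q140 (3859 to 4722), 4326 in Q92 (3910 to 5367), 3925 in Q50 (3459 to 4312), 4215 in Q20 (4039 to 5420), 4281 in Q20-line WT (3824 to 5821) and 4184 in Q50-line WT (3717 to 5969). At 6 months the medians lay between 3776 in Q92 and 4186 in Q20-line WT. Again the ranges of the groups overlapped at each age.

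mir-26a-1 spread over a wide range within every genotype, as each held libraries of both kinds of L tag. At 10 months its level ran between 3893 and 18037 normalised CPM in Q140, 4684 and 18497 in Q92, 2373 and 17629 in Q50, 3604 and 17470 in Q20, 4980 and 17161 in Q20-line WT, and 2872 and 16706 in Q50-line WT. Within an L tag the spread was uneven: the 10 control libraries of L8 had 15582 to 17470 normalised CPM, and the 14 of L1 had 2872 to 11347.

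**Figure D2:**
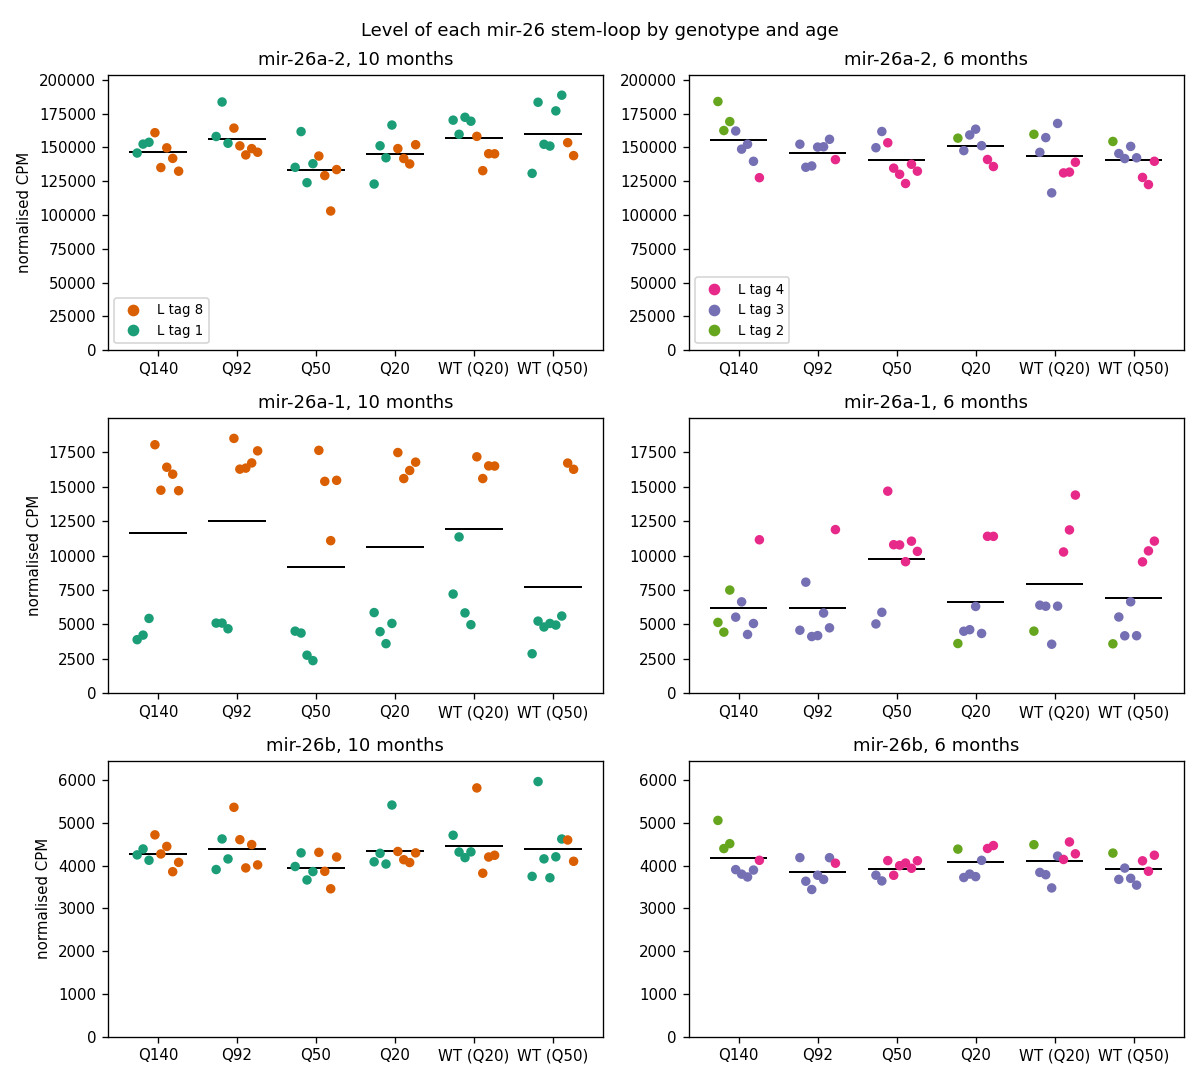
Level of mir-26a-2, mir-26a-1 and mir-26b (rows) in normalised CPM by genotype, at 10 months (left) and 6 months (right). Points are the libraries that entered the tests (8 per genotype and age, 7 for Q92 and Q20 at 6 months), coloured by L tag, and lines are means; mir-26a-1 splits by L tag in every genotype.

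The first question was whether a long repeat changes the family. No member was called in Q140 or in Q92 mice, or along the CAG length. Over both ages (edgeR z values of the ages added), the log2 fold change of Q140 against controls was -0.0038 for mir-26a-2 (SE 0.04, adjusted p = 0.967), 0.0044 for mir-26a-1 (SE 0.09, adjusted p = 0.967) and -0.0095 for mir-26b (SE 0.04, adjusted p = 0.984), where 5.07% of all IDs were called. The 95% intervals were -0.07 to 0.07, -0.17 to 0.18 and -0.08 to 0.06, and for mir-26a -0.09 to 0.05 (log2 -0.02, SE 0.04, adjusted p = 0.893). These values are means of 2 ages whose estimates had opposite signs. At 6 months, Q140 gave 0.04 for mir-26a-2 (SE 0.04), 0.17 for mir-26a-1 (SE 0.12) and 0.02 for mir-26b (SE 0.03). At 10 months, it gave -0.04 (SE 0.06), -0.16 (SE 0.13) and -0.04 (SE 0.06). For Q92, the log2 fold changes were 0.03 for mir-26a-2 (SE 0.04, adjusted p = 0.889), -0.0025 for mir-26a-1 (SE 0.09, adjusted p = 0.998) and -0.0027 for mir-26b (SE 0.04, adjusted p = 0.998). For mir-26a it was 0.02 (SE 0.04, adjusted p = 0.919). By age, mir-26a-1 was at 0.05 at 6 months (SE 0.12) and -0.06 at 10 months (SE 0.13) in Q92. mir-26a-2 was at 0.0084 (SE 0.04) and 0.04 (SE 0.06), and mir-26b at 0.0038 (SE 0.03) and -0.0091 (SE 0.06). In Q92, 0% of the 434 IDs were called by edgeR and 0 by DESeq2, while 25 had an unadjusted p under 0.05, with no member among them.

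With the CAG length as a number (7 for WT), the slope per 100 CAG was 0.0056 for mir-26a-2 (SE 0.03, adjusted p = 0.874), -0.0026 for mir-26a-1 (SE 0.06, adjusted p = 0.976), -0.0072 for mir-26b (SE 0.03, adjusted p = 0.9999) and -0.0039 for mir-26a (SE 0.03, adjusted p = 0.979). Of all IDs, 3% were called. For mir-26a-2 the 95% interval of the mean slope of the 2 ages was -0.05 to 0.06 per 100 CAG. Its single-age slopes had opposite signs, 0.03 at 6 months (95% interval -0.03 to 0.09) and -0.02 at 10 months (-0.11 to 0.07). So had those of mir-26a-1, 0.11 at 6 months (SE 0.08) and -0.12 at 10 months (SE 0.10). Those of mir-26b were 0.01 (SE 0.02) and -0.03 (SE 0.05).

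In single ages, no member was called outside the Q50 comparison with controls: of 36 such tests, over 6 contrasts and 2 ages, 0 were called by edgeR and 0 by DESeq2, and 2 had an unadjusted p under 0.05 (smallest adjusted p = 0.183). The share of all IDs called there was 2.3% at each age for Q140, 0% at each age for Q92, 0.461% at 10 months and 2.76% at 6 months for CAG length, 6.91% at 10 months and 1.15% at 6 months for sex, and 0% at each age for both littermate contrasts. Where edgeR called 0 IDs, 47 had an unadjusted p under 0.05 for Q92 at 10 months and 22 at 6 months, 24 and 43 for Q20 against its WT littermates and 44 and 4 for Q50 against its WT littermates. DESeq2 called 2 IDs for Q20 against its WT littermates at 6 months and 0 in the other 5 cases.

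**Figure D3:**
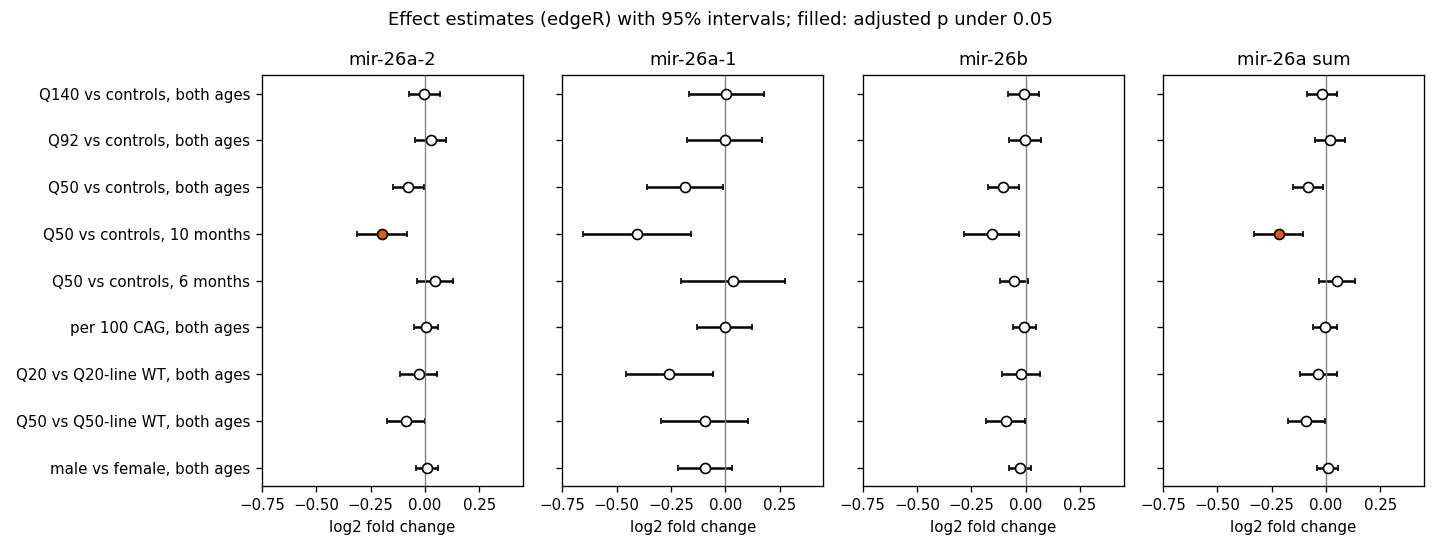
Log2 fold changes of mir-26a-2, mir-26a-1, mir-26b and their mir-26a sum from edgeR, with 95% intervals from the SE. The CAG row is a slope per 100 CAG. In rows over both ages the interval is that of the mean fold change, whereas p comes from the added z values. The 2 can differ: for mir-26a-2 in Q50 over both ages the interval was -0.15 to -0.0056, with an unadjusted p of 0.135. Filled points have an adjusted p under 0.05: they are mir-26a-2 and mir-26a in Q50 against controls at 10 months, at -0.20 and -0.22.

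The exception was Q50 at 10 months, where mir-26a was lower. mir-26a had a lowest, median and highest level of 113992, 142393 and 166034 normalised CPM in the 8 Q50 libraries, against 128708, 164166 and 194178 in the 24 controls. Of the 8 Q50 libraries, 7 lay under the control median, 2 lay under every control, and all 8 lay under the median of the controls with their own L tag. The log2 fold change was -0.22 (SE 0.06, adjusted p = 0.0227, 0.86-fold), with the 2 loci taken as 1 row and 3.46% of the 433 rows called. By locus, the log2 fold change was -0.20 for mir-26a-2 (SE 0.06, adjusted p = 0.0411, 0.871-fold), which was called, and -0.41 for mir-26a-1 (SE 0.13, adjusted p = 0.0572), which was not, where 3.69% of 434 IDs were called. mir-26b had a log2 fold change of -0.16 (SE 0.06, adjusted p = 0.197) and was not called.

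The mean level was lower with both L tags, in the same libraries that gave the call, so the split is not independent of it. Among L8 libraries, mir-26a averaged 142173 ± 20064 normalised CPM in Q50 (SD, n = 4) and 162390 ± 8069 in controls (SD, n = 10), a difference in mean log2 level of -0.20. These Q50 libraries had 161184, 149003, 144513 and, in Q50 10-month female replicate 3, 113992, against 148344 to 175293 in the L8 controls. The L8 difference thus leaned on that 1 library. Among L1 libraries, it averaged 143167 ± 16495 in Q50 (SD, n = 4) and 165275 ± 19769 in controls (SD, n = 14), a difference of -0.20. With TMM factors of the 10-month libraries alone, as in the tests, these differences were -0.18 with L8 and -0.26 with L1 for mir-26a, -0.18 and -0.22 for mir-26a-2, -0.14 and -0.66 for mir-26a-1 and -0.11 and -0.18 for mir-26b. The 14 L1 controls include Q20-line WT 10-month female replicate 3, whose mir-26a-1 was more than any other L1 library's.

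**Figure D4:**
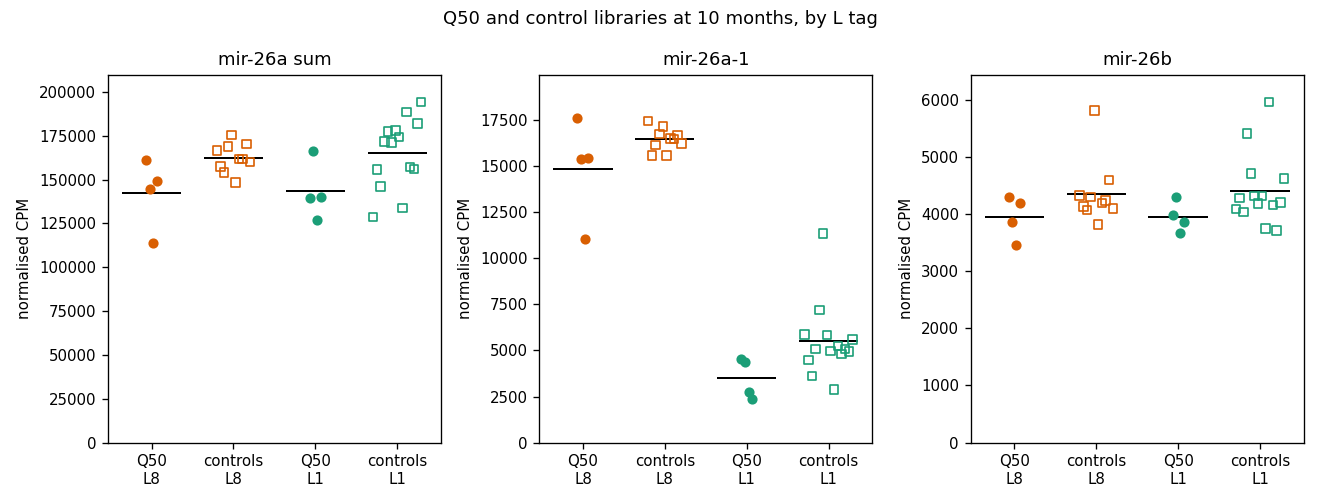
Level of mir-26a, mir-26a-1 and mir-26b at 10 months in Q50 libraries (filled circles) and control libraries (open squares), in normalised CPM, with L8 (4 Q50, 10 controls) and L1 (4 Q50, 14 controls) apart. Lines are means; the mean of mir-26a in Q50 was lower than that of the controls with each L tag, and single libraries overlap.

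The call in Q50 rested on few libraries. It was lost for mir-26a when Q50 10-month female replicate 3, which had the lowest level and a Z.k of -4.30, was left out (log2 -0.18, adjusted p = 0.248), and likewise without Q50 10-month male replicate 3 (-0.19, adjusted p = 0.144), Q50 10-month male replicate 4 (-0.20, adjusted p = 0.0664) or Q50-line WT 10-month female replicate 2 (-0.20, adjusted p = 0.0504), and it was kept in the other 44 of 48 cases. For mir-26a-2 it was kept in 34 of 48 cases. It was lost without Q50 10-month female replicate 3 (-0.16, adjusted p = 0.32), Q50 10-month male replicate 3 (-0.17, adjusted p = 0.276), Q50 10-month male replicate 4 (-0.19, adjusted p = 0.0941), Q50 10-month female replicate 4 (-0.19, adjusted p = 0.0798) or Q50 10-month male replicate 1 (-0.21, adjusted p = 0.0506). It was also lost, at an adjusted p between 0.0503 and 0.0639, without any 1 of 9 controls: Q20 10-month female replicate 1, Q20 10-month male replicates 1 and 4, Q20-line WT 10-month female replicates 1 and 2, Q20-line WT 10-month male replicates 3 and 4, Q50-line WT 10-month female replicate 4 and Q50-line WT 10-month male replicate 2. Without all libraries of a Z.k under -3, the log2 fold change of mir-26a was -0.16 (adjusted p = 0.661) and that of mir-26a-2 was -0.15 (adjusted p = 0.66). On the FPKM scale (limma, log2 of FPKM + 1), they were -0.14 (adjusted p = 0.116) and -0.13 (adjusted p = 0.114). Without the filter on low counts, they were -0.21 (adjusted p = 0.0609) and -0.21 (adjusted p = 0.0714). mir-26a-1, in turn, was called by DESeq2 (-0.42, adjusted p = 0.0252), with RLE factors (-0.42, adjusted p = 0.0481) and against WT controls alone (-0.47, adjusted p = 0.0342). It was also called, at an adjusted p of 0.0191 to 0.0499, without any 1 of 7 libraries: Q50 10-month female replicate 1, Q50 10-month male replicates 1 and 2, Q20 10-month female replicate 2, Q20 10-month male replicate 3, Q20-line WT 10-month female replicate 4 and Q50-line WT 10-month female replicate 1.

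At 6 months no member was called in Q50. The log2 fold change was 0.05 for mir-26a (SE 0.04, adjusted p = 0.864), 0.05 for mir-26a-2 (SE 0.04, adjusted p = 0.895), 0.04 for mir-26a-1 (SE 0.12, adjusted p = 0.999) and -0.05 for mir-26b (SE 0.03, adjusted p = 0.895), with 0% of IDs called by edgeR, 0 by DESeq2 and 13 at an unadjusted p under 0.05. mir-26a had 132805, 146957 and 168058 normalised CPM (lowest, median and highest) in 8 Q50 libraries, against 119889, 152385 and 173996 in 23 controls. The difference between the ages was tested itself: the Q50 effect at 10 months minus that at 6 months was -0.26 for mir-26a (SE 0.08, adjusted p = 0.139), -0.24 for mir-26a-2 (SE 0.07, adjusted p = 0.133), -0.44 for mir-26a-1 (SE 0.18, adjusted p = 0.199) and -0.10 for mir-26b (SE 0.07, adjusted p = 0.585). It passed for 0% of IDs, with 68 at an unadjusted p under 0.05, and DESeq2 called 0. Of all 36 tests of differences between ages or sexes in the Q140, Q92 and Q50 effects on the 3 members, 0 were called and 2 had an unadjusted p under 0.05, those of mir-26a-2 and mir-26a-1 just given.

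Over both ages, Q50 gave a log2 fold change of -0.08 for mir-26a-2 (SE 0.04, adjusted p = 0.848), -0.19 for mir-26a-1 (SE 0.09, adjusted p = 0.705), -0.10 for mir-26b (SE 0.04, adjusted p = 0.39) and -0.08 for mir-26a (SE 0.04, adjusted p = 0.825). The share of IDs called was 0% by edgeR and 0 IDs were called by DESeq2, with 29 at an unadjusted p under 0.05, of which mir-26b was 1, at the 4th smallest p. Against the WT littermates of the Q50 line alone, the log2 fold change over both ages was -0.09 for each of mir-26a-2 (SE 0.04, adjusted p = 0.922), mir-26a-1 (SE 0.10, adjusted p = 0.994), mir-26b (SE 0.05, adjusted p = 0.916) and mir-26a (SE 0.04, adjusted p = 0.888). At 10 months alone, mir-26a had a lowest, median and highest level of 113992, 142393 and 166034 normalised CPM in the 8 Q50 libraries, against 133617, 165155 and 194178 in the 8 Q50-line WT libraries. The log2 fold change was -0.25 for mir-26a (SE 0.07, adjusted p = 0.104), -0.24 for mir-26a-2 (SE 0.07, adjusted p = 0.183), -0.29 for mir-26a-1 (SE 0.15, adjusted p = 0.499) and -0.16 for mir-26b (SE 0.08, adjusted p = 0.499), and none was called. mir-26a-2 had the 3rd smallest p of 434. Without Q50-line WT 10-month female replicate 1, mir-26a (-0.29, adjusted p = 0.0162) and mir-26a-2 (-0.28, adjusted p = 0.0413) were called, and without Q50 10-month female replicate 1, mir-26a was called (-0.28, adjusted p = 0.043). Over both ages, 0% of IDs were called by edgeR and 0 by DESeq2, and 25 had an unadjusted p under 0.05. This contrast shares its Q50 libraries, and its WT libraries, with the one against all controls, so the values stand side by side and are not independent.

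Between the groups that served as controls, Q20 and the WT littermates of the Q20 line, mir-26a-1 had a log2 fold change of -0.26 over both ages (SE 0.10, adjusted p = 0.393), with 1.15% of IDs called. It was -0.03 for mir-26a-2 (SE 0.04, adjusted p = 0.957), -0.02 for mir-26b (SE 0.04, adjusted p = 0.967) and -0.04 for mir-26a (SE 0.04, adjusted p = 0.923). No member was called between the sexes: the log2 fold change of males against females over both ages was 0.0077 for mir-26a-2 (SE 0.03, adjusted p = 0.883), -0.09 for mir-26a-1 (SE 0.06, adjusted p = 0.36), -0.03 for mir-26b (SE 0.03, adjusted p = 0.802) and 0.0074 for mir-26a (SE 0.03, adjusted p = 0.884), where 9.91% of IDs were called.

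Between the ages, mir-26a-1 and mir-26b were called higher at 10 than at 6 months, where 34.6% of all IDs were called in either direction. The log2 difference was 0.54 for mir-26a-1 (SE 0.16, adjusted p = 0.00626), 0.09 for mir-26b (SE 0.03, adjusted p = 0.00877), 0.03 for mir-26a-2 (SE 0.03, adjusted p = 0.52) and 0.04 for mir-26a (SE 0.03, adjusted p = 0.239). Without the libraries of a Z.k under -3, mir-26a was called too (0.07, adjusted p = 0.0449). No L tag occurs at both ages, so that an effect of age and one of the tag cannot be told apart. In the 24 L8 libraries (10 months) mir-26a-1 averaged 16226 ± 1459 normalised CPM and in the 24 L1 libraries (10 months) 4974 ± 1725, against 11271 ± 1447 in the 16 L4, 5286 ± 1112 in the 24 L3 and 4799 ± 1445 in the 6 L2 libraries at 6 months (SD).

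The counts of mir-26a and mir-26b kept a ratio within a range of 30.1 to 46.0 over all libraries. Counts are per stem-loop, with both arms together, so this is not a ratio of the 5p forms. mir-26a held 30.1 to 43.2 times the counts of mir-26b in the libraries tested at 10 months (median 37.7) and 31.5 to 46.0 times at 6 months (median 37.8). The log2 ratio of mir-26b over mir-26a at 10 months was -5.21 ± 0.08 in Q140 (SD, n = 8), -5.27 ± 0.10 in Q92 (n = 8) and -5.17 ± 0.07 in Q50 (n = 8), against -5.23 ± 0.14 in controls (n = 24). At 6 months it was -5.28 ± 0.11 in Q140 (n = 8), -5.31 ± 0.07 in Q92 (n = 7) and -5.25 ± 0.16 in Q50 (n = 8), against -5.23 ± 0.15 in controls (n = 23). Differences from controls lay between -0.07 and 0.06, and in the exact two-sided permutation tests the p adjusted over the 12 ratio tests was between 0.706 and 0.83. This ratio also differed by L tag at 6 months, with a mean log2 of -5.13 in L4, -5.34 in L3 and -5.22 in L2 libraries. Compared within L tags, the difference from controls was -0.10 in Q50 at 6 months (exact permutation p = 0.0233, adjusted p = 0.279), and the other 5 lay between -0.05 and 0.06 (adjusted p between 0.811 and 0.928). The lower mir-26a of Q50 at 10 months came with a difference of 0.06 in this ratio (exact permutation p = 0.263), 7 of 8 Q50 libraries lying above the control median.

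The ratio of the 2 mir-26a loci did not differ by genotype beyond its spread either. The log2 ratio of mir-26a-2 over mir-26a-1 differed from controls by -0.30 in Q140, -0.32 in Q92 and 0.05 in Q50 at 10 months, and by 0.24 in Q140, 0.19 in Q92 and -0.56 in Q50 at 6 months (exact two-sided permutation tests, adjusted p between 0.701 and 0.901). Compared within L tags, these differences were 0.08, 0.05 and 0.21 at 10 months and -0.13, -0.01 and 0.02 at 6 months (exact permutation within L tag, adjusted p between 0.703 and 0.928), so that 5 of 6 had the opposite sign.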

How the data were processed

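Small RNA of 96 cerebella was sequenced by the authors as strand-specific single-end 36-mers, clipped, aligned with STAR to mm10 and counted with HTSeq, per the study's methods; CASAVA 1.8.2 is listed in the submitters' processing notes. The deposited values are estimated counts per miRBase stem-loop, which need not be whole, and FPKM, which the authors scaled by length and depth. The sources used here do not state how reads that fit 2 loci were divided.

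Estimated counts were rounded to whole numbers. An ID was kept if, at both ages, 8 or more libraries held 10 or more counts of it, and was tested with edgeR 4.0.16 (R 4.3.3, quasi-likelihood, TMM), with sex and L tag as covariates. The p-values were adjusted by Benjamini and Hochberg's method. The ages were combined as the sum of z over the square root of 2, which gave the p-value. Their fold changes were averaged, and the SE and interval over both ages are those of this average. The direct comparison of 10 with 6 months was fitted with genotype and sex only. The mir-26a sum replaced its loci in a fit of its own. Ratios within a library were tested by exact two-sided permutation (Python 3.11.15). Group labels came from the sample titles. Alternatives were DESeq2 1.42.0, RLE factors, no filter, limma 3.58.1 on FPKM (pseudocounts 1 and 0.1), other libraries, covariates and controls, and leaving out each library. The scripts were tested on simulated data.

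The members and lists were chosen with earlier results of these data known. Stem-loops named beside a member are the 3 with the highest mean correlation over the 2 ages. Lists of REST-related and cell type marker microRNAs had been planned but were not used, since the reference used here pairs no miRBase IDs with names, so the labelled tissue was not checked against markers.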

Additional observations from a re-analysis of the deposited data

Results flagged for a closer look

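In each group of 4 libraries of a genotype, age and sex, the highest or lowest library was compared with the others by Dixon's criterion (a gap to the nearest library, as a share of the range, over the 95% critical value for 4 values). Of 72 tests on the 3 members, 8 passed, all of them for mir-26a-1. Chance passes about 1 in 20 where the 4 values come from 1 normal distribution. That does not hold for mir-26a-1 in groups of mixed L tags, so this rate is no reference there. In 7 of the 8, the library was the only one of its L tag within its group.

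At 10 months, mir-26a-1 stood at 18037 normalised CPM in Q140 female replicate 3 (L8), with the other 3 between 3893 and 5435. It was at 16773 in Q20 male replicate 1 (L8), with the others between 3604 and 5072, at 15454 in Q50 male replicate 1 (L8), with the others between 2373 and 4373, and at 16255 in Q50-line WT male replicate 4 (L8), with the others between 4953 and 5609. It was low, at 4684, in Q92 male replicate 1 (L1), with the others between 16341 and 17593, and low, at 5859, in Q20 female replicate 4 (L1), with the others between 15582 and 17470. At 6 months, it was at 11392 in Q20 female replicate 3 (L4), with the others between 4505 and 5447, and at 8065 in Q92 female replicate 2, where all 4 libraries had L3 and the others lay between 4122 and 4578.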

How the results depend on the processing

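Of 628 alternative values for 76 results, 563 were scored as unchanged, 48 changed sign, 11 lost a call and 6 gained one. The causes were not tested. A tested value was unchanged if it kept its direction and its side of the threshold. Differences in mean level within an L tag had no test and were unchanged if nearer to the main value than the SD of the controls. Leave-one-out fits entered by their lowest and highest value only, so not every call lost or gained in a single fit is counted here. With all 96 libraries, none changed.

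For Q50 at 10 months, calls of mir-26a and mir-26a-2 were lost on log2(FPKM + 1) (-0.14 and -0.13), on log2(FPKM + 0.1) (-0.14 and -0.13), without the low count filter (-0.21 and -0.21) and without libraries of a Z.k under -3, a limit chosen after seeing the data (-0.16 and -0.15). A call of mir-26a-1 was gained with DESeq2 (-0.42), RLE factors (-0.42) and WT controls alone (-0.47). With the replicate block, mir-26a remained called, and the call of mir-26a-2 was lost (-0.20, edgeR adjusted p = 0.0509). Replicate numbers did not pair the libraries: deviations of same-numbered libraries had a median correlation of 0.07 at 10 months and -0.04 at 6 months. The sex comparison could not be fitted with the block. Without libraries of a Z.k under -3, mir-26a was called between 10 and 6 months (0.0651).

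Leaving out 1 library at a time, the Q50 fold change at 10 months was -0.25 to -0.18 for mir-26a, -0.24 to -0.16 for mir-26a-2 and -0.47 to -0.32 for mir-26a-1, and against the WT littermates alone it was -0.29 to -0.20 for mir-26a, with a call gained at the lowest. Values near 0, none of them called, changed sign: for CAG, -0.0136 to 0.0078 (mir-26a), -0.0332 to 0.0233 (mir-26a-1), -0.0081 to 0.011 (mir-26a-2) and -0.0163 to 0.0069 (mir-26b); for Q140, -0.0423 to 0.0406 (mir-26a-1), -0.0207 to 0.0057 (mir-26a-2) and -0.0223 to 0.0048 (mir-26b); for Q92, -0.0700 to 0.024 (mir-26a-1) and -0.0224 to 0.0118 (mir-26b). Likewise, Q20 against WT gave -0.0524 to 0.0139 for mir-26b, sex gave -0.00013 to 0.0166 for mir-26a-2, and Q50 at 6 months gave -0.0122 to 0.071 for mir-26a-1. The log2 ratio of mir-26b over mir-26a in Q50 at 6 months was -0.0509 to 0.0195, and that of mir-26a-2 over mir-26a-1 in Q50 at 10 months was -0.179 to 0.226.

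Without the L tag as a covariate, signs changed over both ages for CAG (mir-26a 0.012, mir-26a-1 0.0429), Q140 (mir-26a 0.0098, mir-26a-2 0.0202, mir-26b 0.0093), Q92 (mir-26a-1 0.0715), Q50 (mir-26a-1 0.17), Q50 against WT (mir-26a-1 0.384) and sex (mir-26a-1 0.0581, mir-26a-2 -0.0064, mir-26b 0.0013), at 10 months for Q50 against WT (mir-26a-1 0.243), and at 6 months for Q50 (mir-26a-2 -0.0382). Signs also changed with DESeq2 and RLE factors for CAG (mir-26a 0.0031 and 0.0031) and L8 against L1 (mir-26a -0.0037 and -0.0037), on both FPKM scales for CAG (mir-26a-2 -0.012) and Q140 (mir-26a-1 -0.0085), with WT controls alone for Q140 (mir-26a-1 -0.0412), and with the block for Q140 (mir-26a-1 -0.0055) and Q92 (mir-26b 0.00055). Without libraries of a Z.k under -3, they changed for CAG (mir-26a-2 -0.0089), Q140 (mir-26a-1 -0.025), Q92 (mir-26a -0.00072), L8 against L1 (mir-26b -0.0012) and the ratio of the 2 loci in Q50 at 10 months (-0.0479). Within L tags, that ratio changed sign in Q140 (0.0805 at 10 months, -0.134 at 6 months), Q92 (0.0542 and -0.0105) and Q50 at 6 months (0.0151).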
